A study of Mus musculus with 44 samples.

Results

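The Hox genes were followed here through their histone marks at gene starts in a mouse blood progenitor line that carried an empty vector, Snai1 or a Snai1 mutant. The 38 genes were taken by name from the 4 Hox clusters. They were 10 HoxA genes on chromosome 6, 10 HoxB genes on chromosome 11, 9 HoxC genes on chromosome 15 and 9 HoxD genes on chromosome 2, and all 38 had a window among the 27095 start-site windows of the count table. The choice by name used no measured value, but earlier results of these data were known when it was made.

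Hox genes encode homeodomain transcription factors and stand in 4 clusters, in which the order of the genes along the chromosome follows the order in which they act along the body axis. In blood, genes of the HoxA and HoxB clusters are active in stem and progenitor cells and are turned down as the cells mature, MLL complexes keep the active genes methylated at histone H3 lysine 4, and Polycomb complexes hold the silent ones closed. Meis and Pbx proteins, of the TALE class of homeodomain proteins, are the partners with which Hox proteins bind DNA.

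HPC7 is a mouse haematopoietic progenitor line, derived from embryonic stem cells made to express the LIM-homeodomain factor Lhx2, that depends on stem cell factor and was grown in it here. All groups were transduced with the retrovirus MSCV-IRES-GFP, sorted for GFP and expanded, and they differed in the insert: none (EV), wild-type Snai1 (WT) or Snai1 with phenylalanine exchanged for alanine at amino acid 5 (MUT), a change that weakens binding to the demethylase Lsd1. Snai1 is a zinc-finger repressor that binds CAGGTG and related E-boxes, and Lsd1 removes methyl groups from mono- and dimethylated lysine 4. H3K4me2, which marks active and poised promoters, and H3K4me1, which also marks enhancers, were each measured by ChIP-seq in 3 libraries per construct, and rabbit IgG gave a background in 2 WT libraries. Snai1 itself was measured by ChIP-seq in 1 peak list per construct, made from 4 technical replicates. The labels do not say whether libraries 1 to 3 of a construct came from separate transductions, so p-values measure the spread between these libraries only.

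Totals were 8694515 to 18199945 counts per H3K4me2 library, 4042976 to 8813537 per H3K4me1 library, and 2714255 and 3355479 for IgG. A single Hox window held between 6 and 2550 counts. Libraries numbered 1 by the labels (replicate 1 in the plots) stood apart: between windows, they differed from libraries 2 and 3 of the same group by 9.49 to 17.7 times the counting variance, against 0.980 to 2.30 times between libraries 2 and 3. The EV H3K4me1 libraries 2 and 3 (ratio 0.980) showed no spread beyond sampling noise and were pooled into 1 sample, which leaves n = 2 for EV in H3K4me1. Values are CPM, that is counts scaled to a common library size with TMM factors, and all windows have 1 length by the table's name, 5 kb. At the markers of the cell type, the median H3K4me2 was 162 CPM over 14 progenitor genes (Tal1 230, Gata2 195, Kit 166), 95 over housekeeping genes, 5.36 over stromal and 8.70 over lymphoid genes, 16.7 over mature myeloid genes, 25.4 over erythroid genes and 1.95 over 1476 silent olfactory and vomeronasal receptor windows. Erg, at 3.79 CPM, and Lmo2, at 27.7 CPM, were the 2 progenitor genes whose H3K4me2 was lower than IgG.

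The upstream 250 bases of 5 members are shown because these genes hold the extremes described below: the top 2 H3K4me2 levels (Hoxa3, Hoxa6), the top HoxD level (Hoxd12), the largest construct difference (Hoxd13), and Hoxa9, the member best known from leukaemia, at a low level. Sequences are from RefSeq on GRCm38.p6, 5′ to 3′ on the gene's strand, ending at the base before the annotated start, with CANNTG E-boxes in capitals.
Hoxa3, chr6:52213068-52213317, minus strand: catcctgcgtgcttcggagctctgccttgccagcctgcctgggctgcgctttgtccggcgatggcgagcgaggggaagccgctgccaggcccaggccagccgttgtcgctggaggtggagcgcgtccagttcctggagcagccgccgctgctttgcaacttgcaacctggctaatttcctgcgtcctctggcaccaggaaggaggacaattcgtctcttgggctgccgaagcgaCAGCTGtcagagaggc
Hoxa6, chr6:52208673-52208922, minus strand: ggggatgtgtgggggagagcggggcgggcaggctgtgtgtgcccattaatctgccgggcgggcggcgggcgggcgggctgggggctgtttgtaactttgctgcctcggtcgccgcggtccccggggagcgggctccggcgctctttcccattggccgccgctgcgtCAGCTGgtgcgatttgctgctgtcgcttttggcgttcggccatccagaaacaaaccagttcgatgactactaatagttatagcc
Hoxd12, chr2:74674763-74675012, plus strand: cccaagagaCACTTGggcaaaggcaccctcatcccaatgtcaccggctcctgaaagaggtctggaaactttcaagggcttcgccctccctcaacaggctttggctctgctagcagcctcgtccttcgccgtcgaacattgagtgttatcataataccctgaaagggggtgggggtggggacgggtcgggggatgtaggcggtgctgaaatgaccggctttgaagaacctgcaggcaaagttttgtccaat
Hoxd13, chr2:74667975-74668224, plus strand: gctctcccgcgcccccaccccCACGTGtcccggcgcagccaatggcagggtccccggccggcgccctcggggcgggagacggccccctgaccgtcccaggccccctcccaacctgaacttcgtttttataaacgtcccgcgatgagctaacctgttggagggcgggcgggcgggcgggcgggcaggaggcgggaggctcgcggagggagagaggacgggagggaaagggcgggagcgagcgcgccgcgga
Hoxa9, chr6:52227371-52227620, minus strand: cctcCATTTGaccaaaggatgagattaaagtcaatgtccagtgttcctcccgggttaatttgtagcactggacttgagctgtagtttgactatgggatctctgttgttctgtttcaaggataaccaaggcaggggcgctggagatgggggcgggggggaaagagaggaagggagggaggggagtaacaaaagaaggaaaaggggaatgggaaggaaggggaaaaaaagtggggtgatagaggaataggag

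RefSeq held 24 promoters, each of 300 bases from 250 before to 50 after a start, for 22 of the 38 genes. None of the 24 held CAGGTG on either strand, against 20.2% of all 32851 promoters of that length. CANNTG, of which CAGGTG is 1 form, stood in 17 of 24 (70.8%) and in 72.3% of all promoters. It stood in 10 of 11 promoters of members whose H3K4me2 reached 10 CPM and in 7 of 13 of the others. The median GC content was 57.7% in the Hox promoters and 52.7% in all promoters. These are matches of letters in 300 bases and say nothing of binding.

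The clusters also hold microRNAs. The 5p arms of miR-10 and miR-196 make up 2 seed families and are shown, with bases 2 to 8, the seed, in capitals, because their genes are among the windows measured (RefSeq, GRCm38.p6). Their 3p arms and miR-615, of the HoxC cluster, have other seeds and are not shown.
miR-10a-5p, from the HoxB cluster: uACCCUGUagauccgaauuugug
miR-10b-5p, from the HoxD cluster: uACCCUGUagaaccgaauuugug
miR-196a-5p, from the HoxB and HoxC clusters: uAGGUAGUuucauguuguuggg
miR-196b-5p, from the HoxA cluster: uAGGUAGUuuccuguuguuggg

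H3K4me2 was held by a minority of the Hox genes, and mostly by genes of the middle of HoxA, by 2 neighbours in HoxB and by Hoxd12. Averaged over the 9 libraries, 15 of 38 members reached 10 CPM: 6 of 10 in HoxA, 3 of 10 in HoxB, 1 of 9 in HoxC and 5 of 9 in HoxD. The member median was 5.08 CPM, against 8.97 over all windows. By cluster the medians were 16.8 CPM in HoxA, 3.50 in HoxB, 4.89 in HoxC and 13.3 in HoxD. For H3K4me1, 21 of 38 members reached 10 CPM, 6 in HoxA and 5 in each other cluster, with medians of 21.1, 9.94, 21.0 and 12.3 CPM in the order HoxA to HoxD. In bulk chromatin, a mark in a share of the cells and a weaker mark in all of them cannot be told apart. The plot of levels along the clusters shows that tall H3K4me2 values sit in HoxA, while H3K4me1 is spread more evenly.

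**Figure D1:**
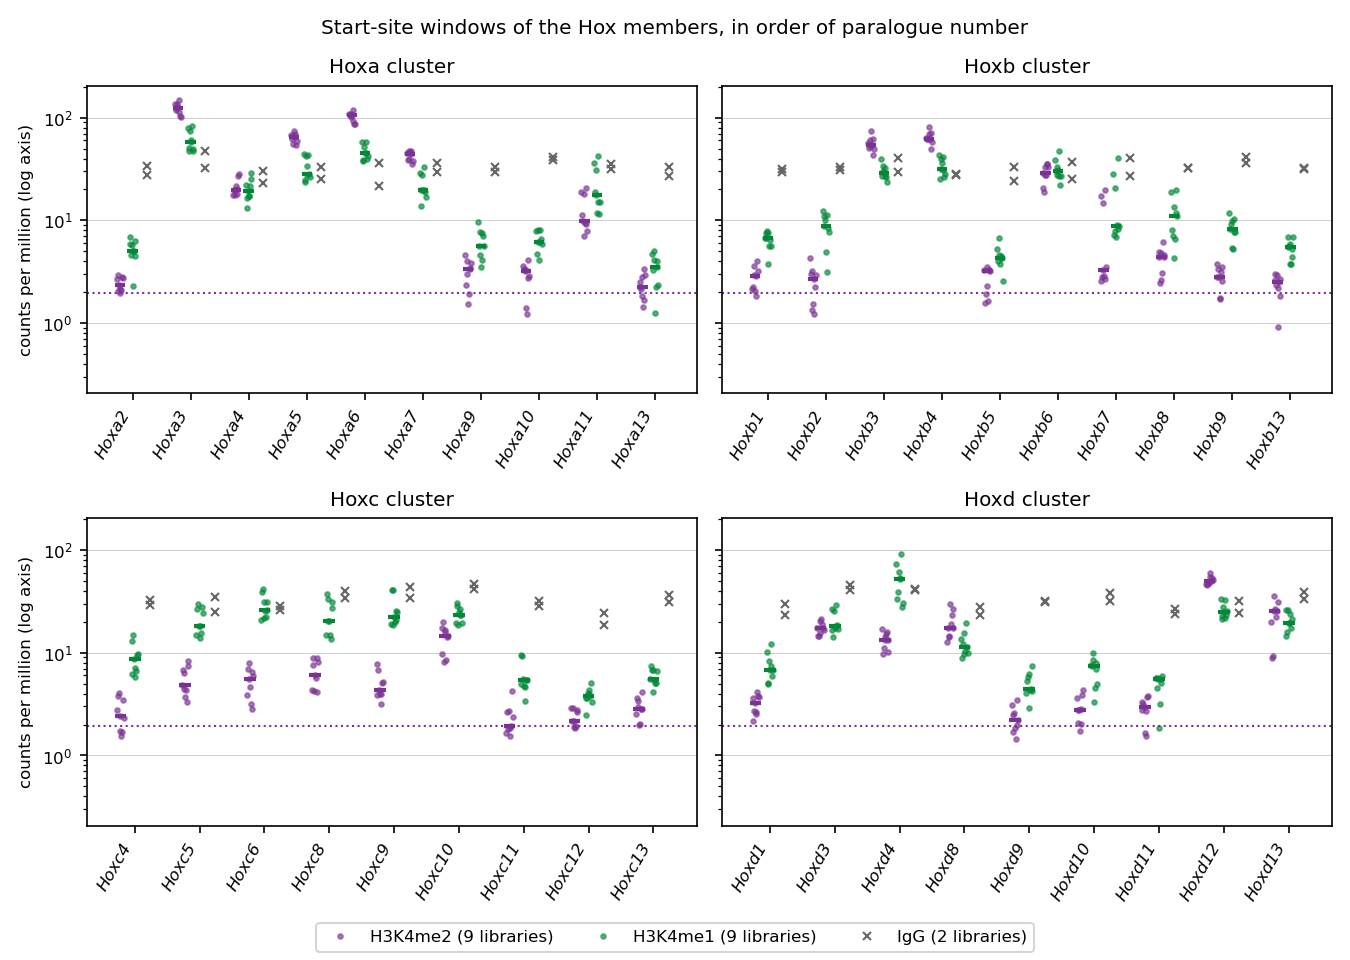
Level of H3K4me2 and H3K4me1 at each Hox gene's start window, in CPM on a log axis, with the genes of each cluster in order of paralogue number; small points are the 9 libraries of a mark, short lines their medians, crosses the 2 IgG libraries, and the dotted line the median H3K4me2 of the silent receptor windows. Hoxa3 and Hoxa6 lead H3K4me2 at means of 123 and 102 CPM, and 23 of 38 genes average under 10 CPM.

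In HoxA, the high values ran from Hoxa3 to Hoxa7. Hoxa3 (chr6:52169059-52213067, GRCm38, minus strand), a gene of the anterior part of the cluster that acts in pharyngeal development, had the highest H3K4me2 of all members. Its H3K4me2 was 135, 124 and 117 CPM in the EV libraries 1, 2 and 3, 136, 128 and 114 in WT and 149, 103 and 102 in MUT, a mean of 123 ± 15.6 (SD, 9 libraries), higher than 95.6% of all windows. The 3 constructs overlapped, and library 1 was the highest of its construct in all 3. Hoxa6 (chr6:52204858-52208672), a mid-cluster gene, stood at 108, 107 and 102 CPM in EV, 108, 106 and 91.9 in WT and 119, 86.8 and 86.5 in MUT. Hoxa5 (chr6:52201754-52204587), which acts in lung and axial skeleton development, stood at 67.2, 61.3 and 55.4 CPM in EV, 66.5, 73.5 and 65.5 in WT and 69.5, 53.7 and 59.3 in MUT. Both genes overlapped between constructs, at means of 102 and 63.6 CPM. Hoxa7 had a mean of 42.5 CPM, Hoxa4 21.2 and Hoxa11, a limb and uterine gene, 12.5. The remaining HoxA genes lay near the silent receptor windows, with Hoxa9 at 3.12, Hoxa10 at 2.88, Hoxa2 at 2.42 and Hoxa13 at 2.33 CPM. Hoxa9 and Hoxa10 are the members most tied to blood progenitors and to leukaemia, and in HPC7 their start windows were near 3 CPM in H3K4me2 and at 6.19 and 6.43 CPM in H3K4me1.

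In HoxB, Hoxb4 and Hoxb3 led. Hoxb4 (chr11:96318267-96321638), known for expanding blood stem cells when overexpressed, had 63.8, 62.0 and 62.2 CPM of H3K4me2 in EV, 69.5, 81.7 and 62.6 in WT and 70.3, 49.0 and 57.6 in MUT. For Hoxb3 (chr11:96307101-96347930) the values were 57.2, 50.7 and 53.0 CPM in EV, 60.2, 74.4 and 54.6 in WT and 62.4, 43.4 and 50.0 in MUT. WT library 2 was the highest of the 9 and MUT library 2 the lowest for both genes. Hoxb6 (chr11:96292814-96301569) had 28.7, 20.6 and 19.0 CPM in EV, 33.2, 27.5 and 27.7 in WT and 35.2, 35.5 and 33.3 in MUT, with every MUT library above every EV library. Of the others, Hoxb7 averaged 7.75 CPM, Hoxb8 4.18, Hoxb9 2.83, Hoxb1 2.77, Hoxb5 2.66, Hoxb2 2.50 and Hoxb13 2.34. By paralogue number, high and low values stood side by side in the middle of HoxB: Hoxb5, between Hoxb6 and Hoxb4, was at 2.66 CPM where these averaged 29.0 and 64.3. By annotated coordinates Hoxb3, at 56.2 CPM, begins between Hoxb5 and Hoxb4, and which of its starts was counted is not known.

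HoxC carried little H3K4me2 but a broad H3K4me1 level. Hoxc10 (chr15:102966796-102971898) led, with 9.62, 17.3 and 19.7 CPM of H3K4me2 in EV, 8.11, 15.8 and 16.5 in WT and 8.50, 14.3 and 14.6 in MUT. Hoxc8 (chr15:102990539-102994275) had 4.34, 7.55 and 8.96 CPM in EV, 4.22, 6.01 and 5.72 in WT and 4.14, 8.79 and 8.10 in MUT. Hoxc5 (chr15:103014008-103017429) had 4.85, 6.86 and 6.38 CPM in EV, 4.40, 3.72 and 4.29 in WT and 3.32, 7.41 and 8.29 in MUT. In Hoxc10 library 1 was the lowest of its construct in all 3 constructs, the reverse of Hoxa3. The H3K4me2 means of the rest were 5.26 CPM for Hoxc6, 4.89 for Hoxc9, 2.93 for Hoxc13, 2.64 for Hoxc4, 2.36 for Hoxc12 and 2.30 for Hoxc11. In H3K4me1, by contrast, Hoxc6 averaged 28.6 CPM, Hoxc9 25.8, Hoxc10 23.9, Hoxc8 23.6 and Hoxc5 21.0, near the median of all windows, 24.8 CPM.

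In HoxD, the highest value was at Hoxd12, near the 5′ end. Hoxd12 (chr2:74675013-74677705), a posterior gene of limb and genital development, had 46.2, 45.3 and 47.7 CPM of H3K4me2 in EV, 47.6, 59.1 and 54.6 in WT and 49.7, 52.8 and 51.0 in MUT. Its next neighbour Hoxd13 (chr2:74668225-74671603), which patterns the digits, had 19.7, 8.92 and 9.29 CPM in EV, 25.2, 35.3 and 26.5 in WT and 22.2, 25.2 and 31.4 in MUT. Hoxd8 (chr2:74704615-74707933) had 12.8, 17.5 and 14.1 CPM in EV, 14.6, 29.9 and 19.0 in WT and 23.2, 26.4 and 17.4 in MUT. For Hoxd13 all 6 libraries with a Snai1 construct lay above all 3 EV libraries, with EV libraries 2 and 3 the lowest. In EV alone Hoxd13 averaged 12.6 CPM, below Hoxd8 at 14.8 and Hoxd3 at 15.5. Hoxd3 averaged 17.4 CPM, Hoxd4 13.3, Hoxd1 3.17, Hoxd10 2.90, Hoxd11 2.84 and Hoxd9 2.30, so that Hoxd12 stood between a neighbour at 22.6 and one at 2.84 CPM. Hoxd4 had the highest H3K4me1 level of the HoxD genes, 72.5, 33.1 and 39.1 CPM in EV, 61.2, 53.3 and 52.5 in WT and 91.1, 28.0 and 30.2 in MUT.

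The balance of the marks split the same genes. On column totals with 0.5 CPM added, the mean log2 ratio of H3K4me2 to H3K4me1 was 1.14 in Hoxa6, 1.03 in Hoxa3, 0.98 in Hoxa5, 0.97 in Hoxa7, 0.96 in Hoxd12, 0.93 in Hoxb4 and 0.90 in Hoxb3. At the other end, it was -2.36 in Hoxc6, -2.27 in Hoxc9, -1.84 in Hoxc5 and -1.82 in Hoxd4. The ratio compares 2 antibodies and ranks genes, not amounts of mark. Some windows can share reads, since starts lie close together: 4085 bp separate the starts of Hoxa5 and Hoxa6, 4395 bp those of Hoxa6 and Hoxa3, and 4545 bp those of Hoxd12 and Hoxd11. The annotated starts of Hoxa3 and Hoxb3 lie far from much of their gene, and which start the windows used is not known.

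The IgG libraries gave the background of the windows, but on column totals they are no lower limit for the marks, since most members had less of either mark than IgG. IgG held 47.4 and 32.1 CPM at Hoxa3, 36.1 and 21.7 at Hoxa6, 28.3 and 27.6 at Hoxb4, 33.1 and 39.1 at Hoxd13 and 29.8 and 32.8 at Hoxa9 in its 2 libraries, a nearly flat profile. Against IgG, with libraries scaled to their totals, H3K4me2 in WT was higher at 7 members: Hoxa6 (log2 1.75, SE 0.19), Hoxa3 (1.60), Hoxb4 (1.29), Hoxa5 (1.16), Hoxd12 (0.86), Hoxb3 (0.78) and Hoxa7 (0.43, adjusted p = 0.0213, edgeR). It was lower at 27, and 4 did not pass: Hoxa4, Hoxb6, Hoxd8 and Hoxd13. Of all 26313 windows tested, 36.1% were higher and 55.7% lower (91.8% in either direction), and the median was -1.92, against -3.04 for the members. H3K4me1 was higher at 3 members, Hoxa6 (0.68), Hoxa3 (0.66) and Hoxd4 (0.42, adjusted p = 0.0338), and lower at 26, where 27.7% of all windows were higher and 48.4% lower (76.1% in either direction). The counts depend on the scaling: with libraries scaled on the silent receptor windows, 17 members were higher and 0 lower for H3K4me2 (54.8% of all windows higher), and 20 were higher and 1 lower for H3K4me1 (62% higher). DESeq2 called 12 members higher for H3K4me2 (45.7% of all windows) and 5 for H3K4me1 (39%), and without the IgG library 2 no member was higher for H3K4me1 (21.2%).

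Polycomb genes, MLL and Dot1l complex genes and the HOXA9 programme had higher median H3K4me2 than the Hox genes (5.08 CPM), and Cdx and ParaHox genes had a lower one. Among TALE genes, H3K4me2 averaged 284 CPM at Pbx2, 178 at Meis1, 105 at Pknox1, 65.7 at Pbx3, 48.2 at Meis3, 46.0 at Meis2, 40.9 at Pknox2 and 25.6 at Pbx4. Over IgG, H3K4me2 was higher at 4 of 9 (Meis1 by log2 1.93, Pbx2, Pknox1 and Pbx3) and lower at 1, Pbx4. The medians were 78.8 CPM over 24 Polycomb genes and 104 over 17 MLL and Dot1l complex genes, of which 22 and 13 were higher than IgG and 2 and 3 lower. Genes tied to the HOXA9 leukaemia programme had a median of 114 CPM, with 13 of 18 higher than IgG and 4 lower. Cdx and ParaHox genes, the upstream activators of Hox genes and their sister cluster, had a median of 2.98 CPM. Of these 6 genes, 5 were lower than IgG, and the sixth, Cdx1, averaged 40.0 CPM in H3K4me2 and 103 in H3K4me1.

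Genes beside the clusters had a median H3K4me2 of 68.4 CPM over 23, and 18 were higher than IgG and 5 lower. The high ones included Nfe2 (221 CPM, an erythroid and megakaryocyte factor), Cbx5 and Hnrnpa1 (140 each) and Nfe2l2 (124). Tax1bp1 stood at 113 CPM, Hnrnpa3 at 101, Skap2 at 87.5 and Lnpk at 87.3. Evx2, the homeobox gene at the 5′ end of HoxD, stood at 48.8 CPM. Its counterpart Evx1 by HoxA stood at 3.28, and Calcoco2, Ttll6, Skap1 and Gip by HoxB stood at 3.63 to 5.80. Among 10 noncoding genes of the clusters, H3K4me2 averaged 63.5 CPM at Hoxaas3, 21.5 at Hotair, 19.3 at Hoxd3os1, 11.9 at Mir196a-2 and 11.6 at Hoxa11os. Mir10b, at 5.04, Mir10a, at 4.81, Mir615, at 2.59, Mir196b, at 2.14, and Mir196a-1, at 1.49, were low, so that of the starts of both seed families shown above only Mir196a-2 reached 10 CPM.

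The comparison of the constructs asked whether Snai1 moves the marks at these genes, and whether it does so without Lsd1 binding. No member passed in any of the 6 contrasts. For H3K4me2, 0 of 38 passed between WT and EV, where 0.00388% of all windows did (1 of 25742), and 0 of 38 between MUT and EV or between WT and MUT, where 0% did. For H3K4me1, 0 of 38 passed in each contrast, as did 0% of 25728 windows. At an unadjusted p under 0.05 the H3K4me2 counts were 4, 2 and 2 members in the order WT against EV, MUT against EV and WT against MUT, where 7.32%, 4.95% and 9.9% of all windows reached it. The H3K4me1 counts were 0 in each, where 2.88%, 1.61% and 5.24% of all windows did. DESeq2 called 1 member, Hoxd13 for H3K4me2 between WT and EV (adjusted p = 0.00586), and 0 in the other 5 contrasts. Of all windows it called 0.563%, 0.0222% and 0.404% for H3K4me2 and 0.00371%, 0% and 0.154% for H3K4me1, in the order WT against EV, MUT against EV and WT against MUT. Without EV library 1, 1 member passed between WT and EV (Hoxd13, 2.79% of all windows) and 2 between MUT and EV (Hoxb6 and Hoxd13, 1.58%). Without MUT library 1, 5 passed between WT and MUT: Hoxa3, Hoxa7, Hoxb3 and Hoxb4 higher and Hoxc5 lower in WT (16.6%). The difference between the marks in their response was called for 0 of 38 members and for 0% of all windows in each contrast, with 2, 2 and 0 members at an unadjusted p under 0.05 (0.588%, 0.523% and 1.23% of all windows). In simulated H3K4me2 data on 25687 windows, the test recovered 80% of windows with a log2 change of 1 and 100% with a change of 2, and in simulated H3K4me1 data on 25499 windows 52% and 99%. Changes were planted only in windows averaging at least 10 CPM, so these rates do not cover members below it, which for H3K4me2 are 23 of 38. For H3K4me1 the simulation kept the 3 EV libraries apart, and it held no shift of library 1 shared by the constructs.

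Hoxd13, whose H3K4me2 values are given above, came closest. Its H3K4me2 was higher in WT than in EV by log2 1.18 (SE 0.30, adjusted p = 0.446, edgeR) and higher in MUT than in EV by 1.04 (SE 0.30, adjusted p = 0.952). The MUT and WT values share the EV libraries. Between the libraries numbered 1 the differences were 0.35 and 0.14, and between libraries 2 and 3 they were 1.76 and 1.63. Leaving out 1 library at a time moved the WT difference between 0.99 and 1.67 and its adjusted p between 0.00242 and 1, and 0.00242 was the value without EV library 1. Evx2, the next gene on that side, differed the same way without passing, by 0.55 between WT and EV (adjusted p = 0.446) and 0.68 between MUT and EV (adjusted p = 0.952). The median of all chromosome 2 windows was -0.02 and 0.16 in these contrasts.

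Other members with the smallest p-values were these. For H3K4me2 in WT against EV, Hoxc4, an anterior HoxC gene, had 2.75, 3.82 and 4.03 CPM in EV, 2.40, 1.75 and 1.53 in WT and 1.69, 3.45 and 2.30 in MUT, a WT difference of -0.84 (SE 0.31, adjusted p = 0.54, edgeR). Hoxc9 had 3.83, 7.74 and 6.83 CPM in EV, 4.34, 3.93 and 3.17 in WT and 3.96, 5.08 and 5.16 in MUT, a WT difference of -0.66 (SE 0.28, adjusted p = 0.624). In both the EV and WT libraries separated in libraries 2 and 3 and not, or less, in library 1. In MUT against EV, Hoxb6 differed by 0.60 (SE 0.18) and Hoxd8 by 0.60 (SE 0.28), both at an adjusted p of 0.952. In WT against MUT, Hoxd10 had 3.62, 2.06 and 2.80 CPM in EV, 2.74, 1.75 and 2.04 in WT and 2.85, 3.88 and 4.33 in MUT, a difference of -0.70 (SE 0.29, adjusted p = 0.503). Hoxd11 had 3.33, 2.75 and 3.14 CPM in EV, 2.97, 1.64 and 1.53 in WT and 2.74, 3.70 and 3.78 in MUT, a difference of -0.65 (SE 0.29, adjusted p = 0.503), and Hoxb4, given above, differed by 0.27 (SE 0.13, adjusted p = 0.506). Hoxd10 and Hoxd11, both posterior limb genes, averaged 2.90 and 2.84 CPM, against 1.95 at the silent receptor windows, and the constructs separated in libraries 2 and 3. All windows of chromosome 2 had a median of -0.18 in WT against MUT, and of -0.29 within libraries 2 and 3.

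For H3K4me1, the smallest p-values in WT against EV belonged to Hoxb2, Hoxc9 and Hoxa13, all at an adjusted p of 1 (edgeR). Hoxb2, a hindbrain gene, had 12.3, 11 and 8.79 CPM in EV, 10.1, 4.98 and 3.18 in WT and 11.4, 8.52 and 7.80 in MUT, a WT difference from EV of -0.82 (SE 0.40). Hoxc9, a trunk gene, had 18.8, 40.8 and 40.3 CPM in EV, 18.8, 22.4 and 20.0 in WT and 20.8, 25.6 and 25.0 in MUT, a difference of -0.55 (SE 0.29). Hoxa13, which patterns the distal limb, had 4.67, 3.29 and 5.00 CPM in EV, 4.16, 1.24 and 2.24 in WT and 3.54, 4.00 and 2.36 in MUT, a difference of -0.71 (SE 0.42). In all 3 genes the EV and WT libraries overlapped, and in Hoxc9 EV library 1 had the same level as WT library 1.

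In MUT against EV the smallest H3K4me1 p-values belonged to Hoxc11, Hoxa4 and Hoxb3, again at an adjusted p of 1 (edgeR). Hoxc11 had 4.96, 9.51 and 9.31 CPM in EV, 5.54, 4.77 and 4.67 in WT and 3.42, 5.39 and 5.43 in MUT, a MUT difference from EV of -0.65 (SE 0.34). Hoxa4 had 21.9, 13.2 and 16.5 CPM in EV, 19.3, 17.4 and 17.4 in WT and 21.4, 25.2 and 29.1 in MUT, a difference of 0.45 (SE 0.25). Hoxb3 had 39.2, 26.9 and 30.2 CPM in EV, 33.8, 29.0 and 26.9 in WT and 32.4, 26.6 and 23.9 in MUT, a difference of -0.29 (SE 0.22). Hoxa4 showed the pattern most plainly: libraries 2 and 3 of MUT were above those of EV and WT, and the libraries numbered 1 lay together. In WT against MUT, Hoxa4 differed by -0.48 (SE 0.22, adjusted p = 0.965). Hoxb8, which is expressed in myeloid progenitors, had 19.0, 8.05 and 7.07 CPM in EV, 13.4, 4.36 and 6.54 in WT and 19.6, 11.8 and 11.1 in MUT, a WT difference from MUT of -0.79 (SE 0.45, adjusted p = 0.999). Hoxd11 had 5.69, 4.57 and 5.69 CPM in EV, 5.54, 1.87 and 3.18 in WT and 5.06, 5.56 and 5.91 in MUT, a difference of -0.57 (SE 0.35, adjusted p = 0.999). Every WT library lay below every MUT library at Hoxa4, and in the other contrasts named here the libraries of the constructs compared overlapped.

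**Figure D2:**
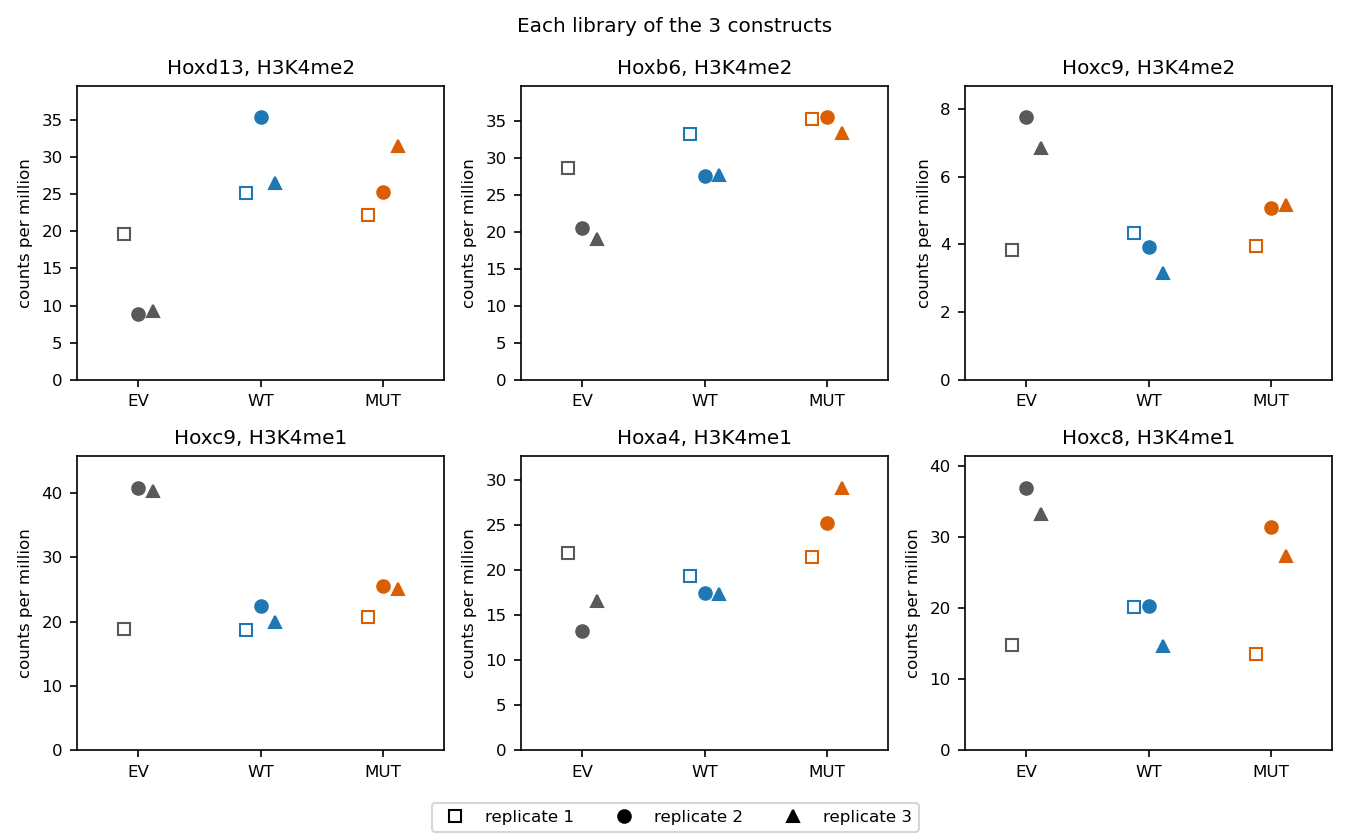
CPM of individual libraries by construct for Hoxd13, Hoxb6 and Hoxc9 in H3K4me2 and for Hoxc9, Hoxa4 and Hoxc8 in H3K4me1; open squares are libraries numbered 1, circles and triangles libraries 2 and 3, and the axes start at 0. Hoxd13 shows all Snai1 libraries above EV, and in the H3K4me1 plots the constructs differ in libraries 2 and 3 more than in library 1.

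Over the whole set, the median H3K4me2 difference was -0.16 between WT and EV (-0.01 over all windows), 0.04 between MUT and EV (0.03) and -0.30 between WT and MUT (-0.04). For H3K4me1 the medians were -0.17 (-0.02), -0.09 (-0.00) and -0.15 (-0.01). With libraries scaled on the silent receptor windows, the H3K4me2 medians of the members were -0.04, -0.12 and 0.02 in the same order, and those of all windows 0.12, -0.13 and 0.25, so that the sign of the members' median in MUT against EV and in WT against MUT depends on the scaling. For H3K4me1 that scaling put the members at -0.18, -0.07 and -0.16 and all windows at -0.01, -0.02 and 0.01. Single libraries also turned these signs. Without EV library 1 the H3K4me1 medians of the members were 0.07 in WT against EV and 0.12 in MUT against EV, with 21 of 38 members positive in each, against 7 and 13 with all libraries. Without MUT library 3 the H3K4me1 median in MUT against EV was 0.01, and without EV library 2 or 3 the H3K4me2 median in that contrast was -0.03 or -0.04.

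The partners and regulators did not pass either. Of 9 TALE, 24 Polycomb, 17 MLL and Dot1l, 18 HOXA9 programme, 6 Cdx and ParaHox, 10 noncoding and 23 neighbouring genes, 0 passed in any construct contrast, and the same held for the lists of other cell types. The smallest H3K4me2 p-values in WT against EV belonged to Evx2, described above, Id2 (0.67, adjusted p = 0.446, edgeR), Pbx4 (-1.16, 0.533), the Polycomb gene Bmi1 (0.30, 0.585), Aff4 of the elongation complex (0.25, 0.718), Mir196b (-0.54, 0.719) and Gsx2 (-0.43, 0.823), 1 gene per list. In MUT against EV they belonged to Lmo2 (1.55), Evx2 (0.68), Mir615 (0.67), Cbx7 (-0.35), Pdx1 (0.32), Meis3 (0.31) and Aff1 (-0.26), all at an adjusted p of 0.952. In WT against MUT they belonged to Lmo2 (-1.45), Pbx4 (-1.21), Mir615 (-0.91), Gsx2 (-0.59), Tax1bp1 (0.37) and Cbx2 (0.30), all at 0.503, and to Aff4 (0.22, 0.511). For H3K4me1 the smallest adjusted p was 0.847, at Pbx3 (-0.50) and at the Polycomb gene Pcgf5 (1.09) in WT against MUT.

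Cluster totals, the sum of CPM over the members of a cluster, were compared with exact permutation tests. The HoxD H3K4me2 total was 127, 105 and 107 CPM in EV, 128, 166 and 144 in WT and 142, 150 and 141 in MUT. Its means were 113, 146 and 144 CPM, of which Hoxd13 alone held 12.6, 29.0 and 26.3, so the total partly repeats the values of that gene. A total without Hoxd13 was not tested. WT exceeded EV by log2 0.37 (SE 0.14) and MUT exceeded EV by 0.35 (SE 0.09), the 2 of 24 cluster comparisons whose libraries did not overlap, at an exact two-sided permutation p of 0.1 each, the smallest 3 against 3 can give, and 0.6 after adjustment over the comparisons of the mark. The windows of chromosome 2 as a whole had a median of -0.02 in WT against EV and 0.16 in MUT against EV, and between the libraries numbered 1 the HoxD differences were 0.02 and 0.16. In MUT against EV all 9 HoxD members had a positive value, with a median of 0.19. The HoxC H3K4me1 total was 108, 205 and 210 CPM in EV, 132, 123 and 122 in WT and 118, 164 and 147 in MUT, so that EV libraries 2 and 3 were the highest and EV library 1 the lowest of the 9. The HoxA H3K4me2 totals averaged 377 CPM in EV, 382 in WT and 366 in MUT, and those of HoxB 164, 185 and 174, with overlap in both.

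**Figure D3:**
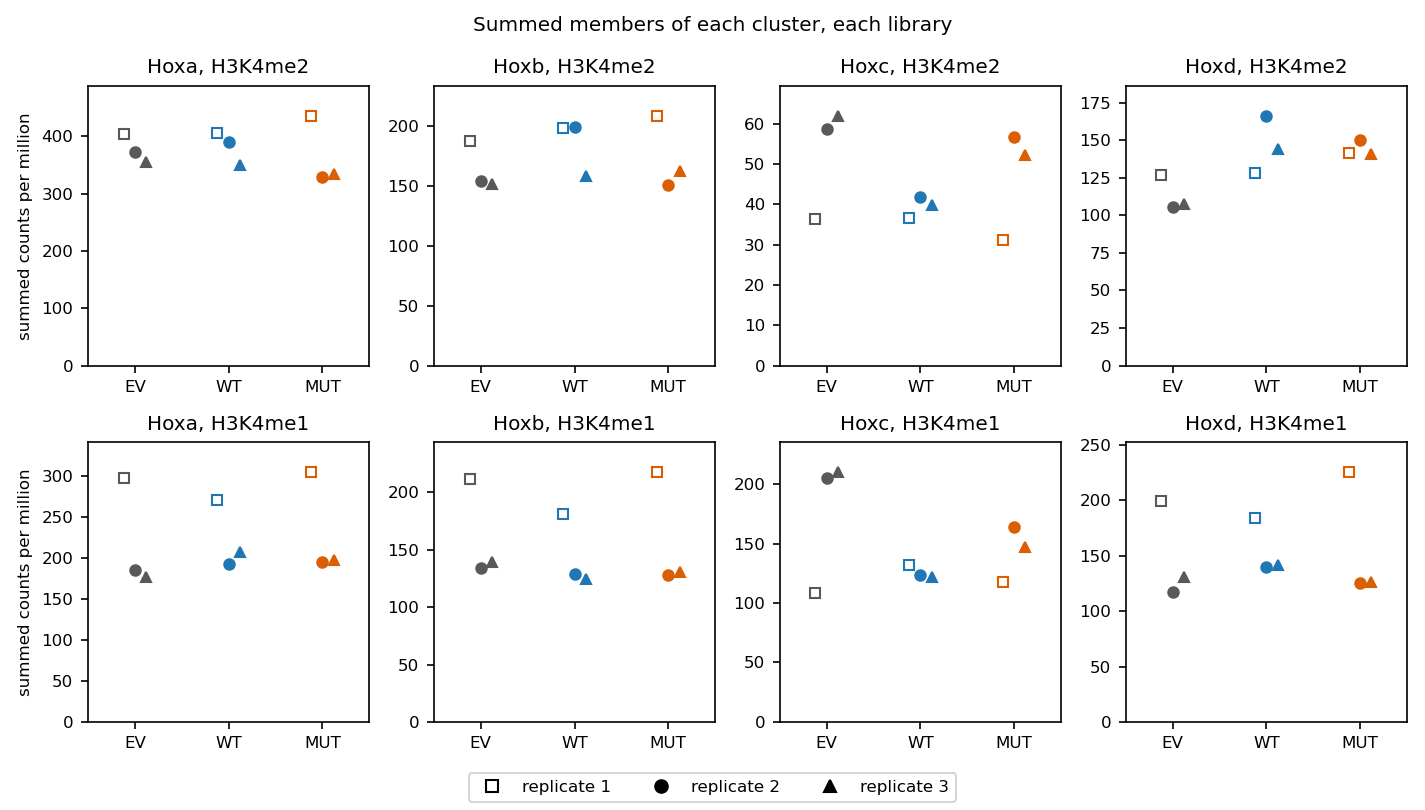
Summed CPM of each cluster's members in every library, for H3K4me2 and H3K4me1, by construct, on axes that start at 0; open squares are libraries numbered 1, circles and triangles libraries 2 and 3. The HoxD H3K4me2 totals of WT (128 to 166) and MUT (141 to 150) lie above those of EV (105 to 127).

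Because the libraries numbered 1 stood apart, the contrasts were also taken within libraries 2 and 3, whose spread is close to counting error, so that small differences pass there. These calls rest on that small spread. With libraries 2 and 3 of each construct summed into 1 and a term for library 1, 0 members passed in each contrast and mark, where 0.342%, 0.073% and 0.45% of all windows passed for H3K4me2 and 0.085%, 0.00386% and 0.0734% for H3K4me1, in the order WT against EV, MUT against EV and WT against MUT. The difference between the marks was then called for 0 members and 0% of all windows. Within libraries 2 and 3, for H3K4me2, WT against EV called 7 members higher and 8 lower (23.5% of all windows in either direction), MUT against EV 5 and 4 (32.7%), and WT against MUT 7 and 20 (58.3%). For H3K4me1, EV libraries 2 and 3 are pooled as described above, which leaves EV at n = 1 here, with no spread of its own. Calls against EV are therefore not counted for H3K4me1, and WT against MUT called 2 members higher and 8 lower (39.4%). Of the H3K4me2 members so called, 10 of 15, 4 of 9 and 7 of 27 had the same sign between the libraries numbered 1 (66.7%, 44.4% and 25.9%, against 48.1%, 33.7% and 24.7% of all windows called). Of the H3K4me1 members called in WT against MUT, 3 of 10 did (30%, against 30.8%). Against EV, the difference between the marks also rests on EV H3K4me1 as 1 sample, with no spread in that arm. Its numbers against EV, given next, are therefore not read as evidence of a difference, and only WT against MUT has replicates in every arm. The difference between the marks was called for 1 member in WT against EV (Hoxd13, 3.18% of all windows), 3 in MUT against EV (Hoxb6, Hoxd10 and Hoxd13, 2.6%) and 1 in WT against MUT (Hoxb6, 4.72%).

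In the H3K4me2 contrasts with WT, the direction of these calls split by the level of the gene. In WT against MUT, of 15 members with at least 10 CPM of H3K4me2, 7 were higher and 2 lower, and of 23 under 10 CPM, 0 were higher and 18 lower. Over all windows the split ran the same way, with 7498 higher and 1414 lower of 13305 at or above 10 CPM, and 201 higher and 5908 lower of 12482 below. In WT against EV, 7 members at or above 10 CPM were higher and 0 lower, and below it 0 were higher and 8 lower, where all windows gave 3397 higher and 1055 lower above and 280 higher and 1331 lower below. In MUT against EV the members did not split this way, with 3 higher and 3 lower at or above 10 CPM and 2 higher and 1 lower below it, while all windows ran the other way, with 1677 higher and 4156 lower above and 2372 higher and 231 lower below. For H3K4me1 the classes by H3K4me2 level ran the same way in the contrasts with WT. In WT against MUT, 2 members were higher and 1 lower at or above 10 CPM, and 0 higher and 7 lower below it. All windows gave 4938 higher and 1482 lower above and 650 higher and 3072 lower below. In WT against EV the H3K4me1 medians of the members were 0.23 above and -0.62 below, and those of all windows 0.11 and -0.26. The scaling on silent windows was run on all libraries only, not within this set.

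Hoxd13 had the largest H3K4me2 difference of the members from EV within libraries 2 and 3, for WT and for MUT. It was higher by 1.76 in WT (adjusted p = 7.07e-07, edgeR) and by 1.63 in MUT (3.05e-06) than in EV, and with libraries 2 and 3 summed it did not pass, at 0.99 and 0.81. Hoxb6 was higher by 0.48 in WT and by 0.79 in MUT. Between WT and MUT, the largest difference in H3K4me2 was at Hoxa10 (-1.40). Hoxa10 had only 1.42 and 1.23 CPM in WT libraries 2 and 3, and the libraries numbered 1 differed by 0.29. In H3K4me1, with EV as 1 sample, the largest differences between WT and EV were at Hoxb2 (-1.28), Hoxa13 (-1.23) and Hoxd10 (-1.14). These genes had 1.24 to 4.98 CPM in WT libraries 2 and 3, and the libraries numbered 1 differed by -0.24, -0.12 and 0.18. In WT against MUT, the smallest H3K4me1 adjusted p was that of Hoxd4 (0.87, adjusted p = 1.40e-12, edgeR), where the libraries numbered 1 differed by -0.51. With EV as 1 sample, H3K4me1 was also lower in WT than in EV at 6 HoxC genes in particular. Hoxc8 (14.9, 37.0 and 33.3 CPM in EV, 20.2, 20.3 and 14.8 in WT and 13.5, 31.5 and 27.4 in MUT) differed by -1.01, Hoxc9 by -0.94, Hoxc6 by -0.77, Hoxc5 by -0.81, Hoxc4 by -1.13 and Hoxc11 by -0.99. The other HoxC genes, Hoxc13, Hoxc10 and Hoxc12, differed by -0.56, -0.28 and 0.18. These 6 average under 10 CPM of H3K4me2, a class where the H3K4me1 median of all windows was also lower in WT, at -0.26. Between the libraries numbered 1 the 6 genes from Hoxc8 to Hoxc11, in the order given, had differences of 0.47, 0.03, 0.59, 0.31, 0.49 and 0.19, all in the other direction.

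**Figure D4:**
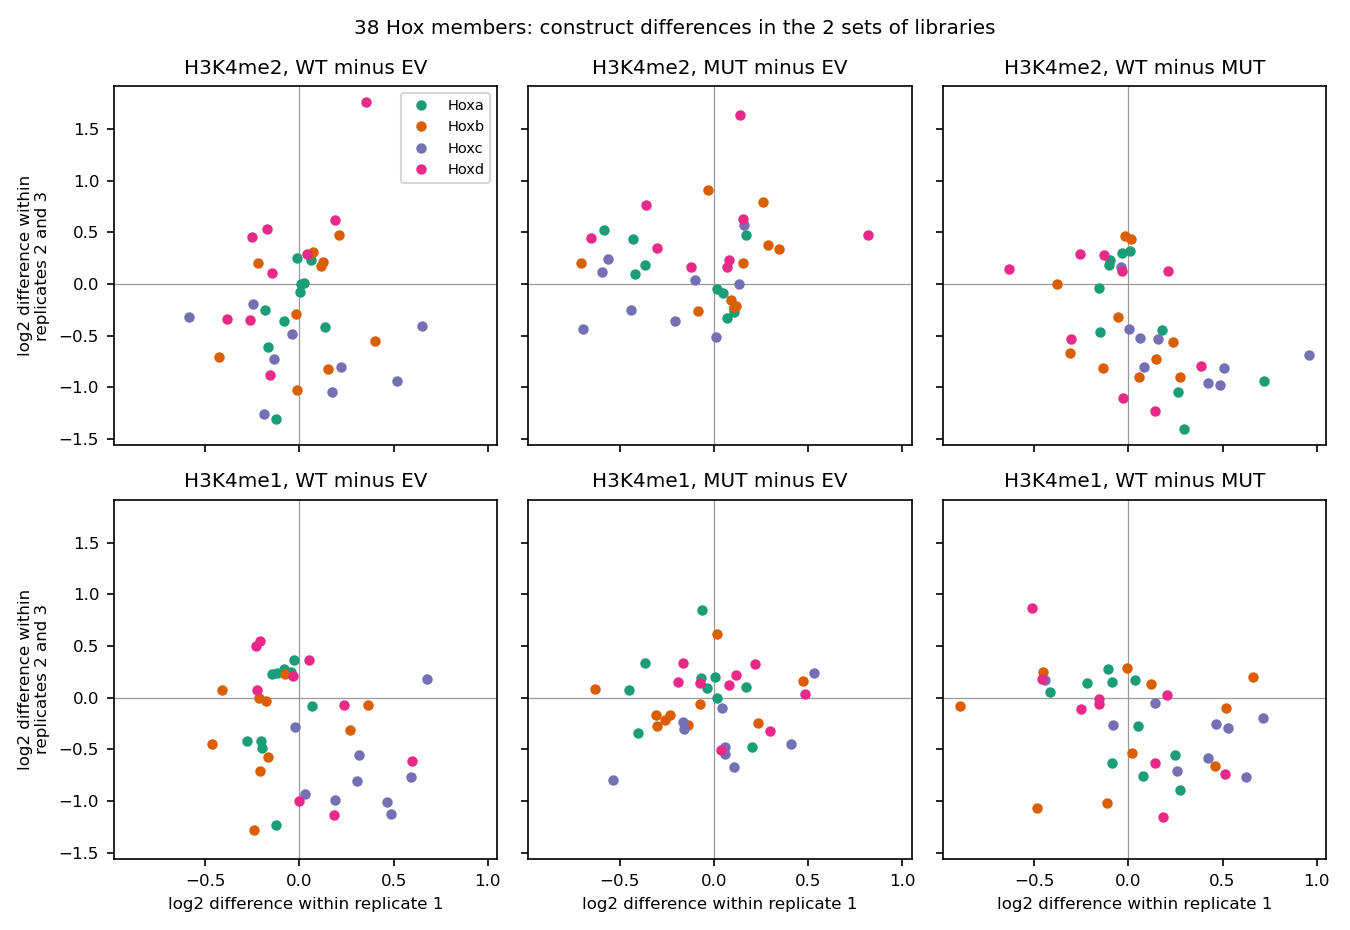
Log2 difference of each member within libraries 2 and 3 (vertical axis) against its difference between the libraries numbered 1 (horizontal axis), for each contrast and mark, with 1 colour per cluster. For H3K4me1 in WT against EV, where EV is 1 sample within libraries 2 and 3, 6 HoxC genes (Hoxc4, Hoxc5, Hoxc6, Hoxc8, Hoxc9 and Hoxc11) fall below 0 on the vertical axis and above it on the horizontal one. For H3K4me1 in WT against MUT, called members share their sign with library 1 in 3 of 10 cases.

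The difference between library 1 and libraries 2 and 3, averaged over constructs, was itself tested after the data had been seen. For H3K4me2, 2 members were higher in library 1 and 0 lower, where 2.05% of 25943 windows were higher and 1.6% lower (3.65% in either direction). Hoxb7 had 17.4, 2.55 and 2.80 CPM of H3K4me2 in EV, 14.9, 3.28 and 2.86 in WT and 19.8, 2.67 and 3.50 in MUT, a difference of 2.56 (SE 0.32, adjusted p = 1.06e-12, edgeR). Hoxa11 had 19.1, 11.4 and 9.97 CPM in EV, 18.0, 7.10 and 9.51 in WT and 20.6, 9.13 and 7.92 in MUT, a difference of 1.07 (SE 0.29, adjusted p = 0.0109). In both genes every library 1 lay above every library 2 and 3, whatever the construct. Leaving out the MUT libraries, Hoxb7 differed by 2.49 (adjusted p = 0.0551) and no member passed.

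For H3K4me1, 9 members were higher in library 1 and 1 lower (6.77% and 3.54% of 25804 windows, 10.3% in either direction). They were Hoxb7 (1.86), Hoxa11 (1.29), Hoxb8 (1.11), Hoxd4 (0.95), Hoxa7 (0.72), Hoxd3 (0.66, adjusted p = 0.0452), Hoxa5 (0.65), Hoxa3 (0.60) and Hoxb6 (0.52, adjusted p = 0.0492), and the lower one was Hoxc8 (-0.73, adjusted p = 0.0468, edgeR). By sign, all 10 HoxA and all 10 HoxB genes were higher in library 1 for H3K4me1, and all 9 HoxC genes were lower in both marks. Leaving out a construct moved these H3K4me1 counts to 9 of 10 for HoxA (without EV) and 8 of 10 for HoxB (without WT). HoxC genes lower in library 1 numbered 8 of 9 without EV in both marks. Without MUT they numbered 8 of 9 for H3K4me1 and 6 of 9 for H3K4me2. Scaling on the silent receptor windows left 6 of 9 HoxC genes lower for H3K4me1 and 5 of 9 for H3K4me2. Under that scaling the median of all windows stood at 0.29 and 0.28. The noncoding genes named here went with their clusters, and the others are not given for this comparison. Hoxa11os was higher in both marks, and Hotair (-2.16, adjusted p = 2.04e-12, edgeR) and Mir196a-2, both in HoxC, were lower in H3K4me2. Mir10b and Hoxd3os1, both in HoxD, were higher in H3K4me1. Among the partners, Pbx4 was higher in both marks and Pbx2 in H3K4me1. What separates library 1 from the others is not stated in the labels.

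**Figure D5:**
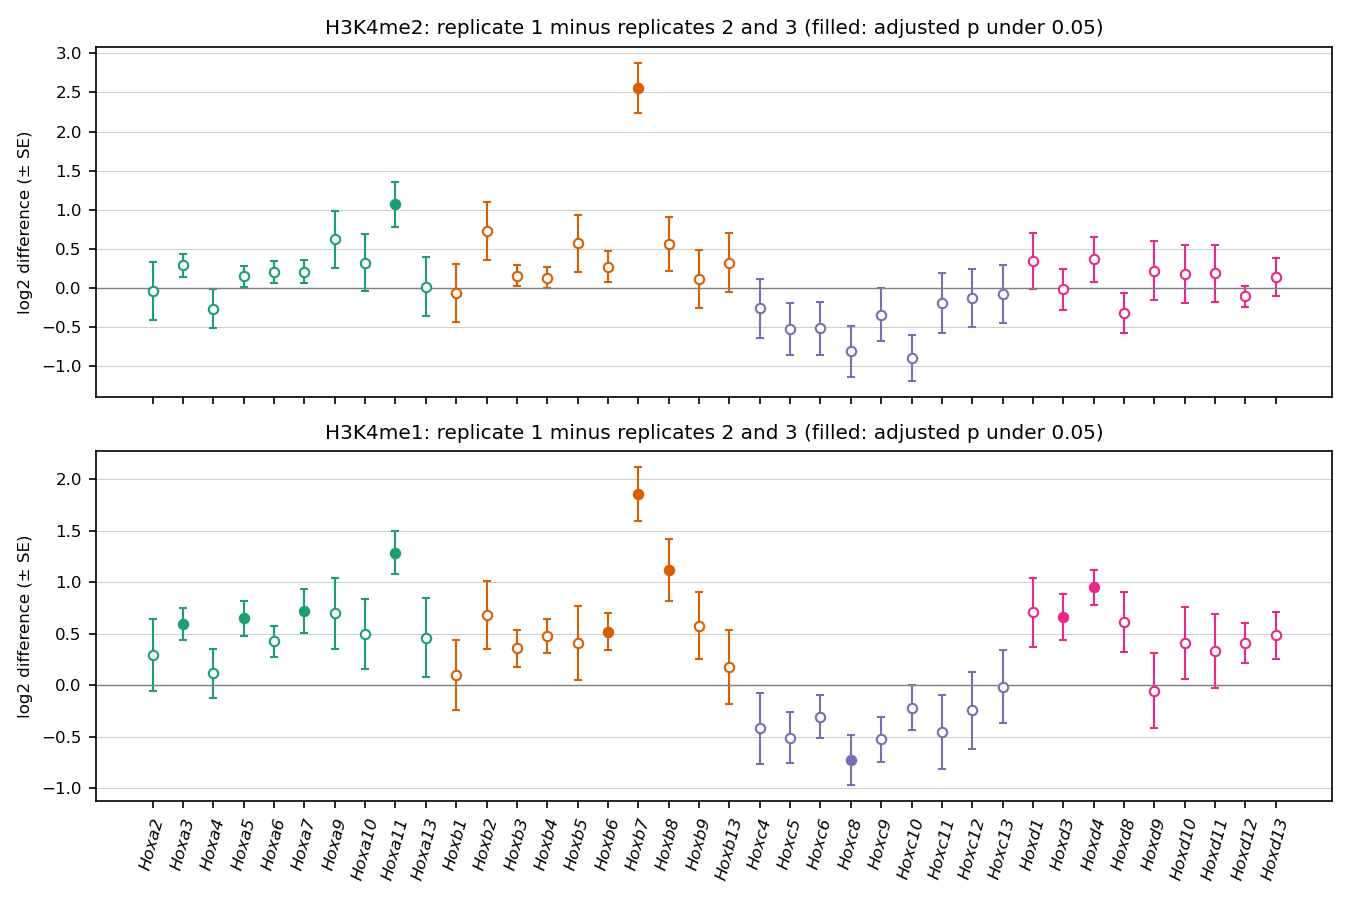
Log2 difference of library 1 from libraries 2 and 3 for each member, with its standard error, for H3K4me2 and H3K4me1, ordered by cluster; filled points passed at an adjusted p of 0.05. HoxA and HoxB genes lie above 0 in H3K4me1, HoxC genes below 0 in both marks, and Hoxb7 is the highest. Not all HoxC genes are below 0 where libraries are scaled on the silent receptor windows or the EV or MUT libraries are left out.

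The Snai1 peak lists held almost nothing in the clusters. Within the clusters and 10 kb on either side there were 0 of 137 EV peaks, 0 of 2929 WT peaks and 1 of 12037 MUT peaks. The MUT peak, chr15:103019837-103020176 (GRCm38), lay inside Hoxc4 with its summit 1936 bp from the gene's first base and 14362 bp from the start in RefSeq. The authors gave it a 5.83-fold enrichment and a -log10 q of 8.25, rank 6137 of the list. Widening the flank to 50 kb added 1 MUT peak, chr11:96399970-96400240 (4.15-fold, -log10 q 4.88), 31716 bp from Hoxb1. Of the members, 0 of 38 had a WT peak within 10 kb, where 12.3% of 25154 genes did, 3 of 38 (7.89%; Hoxc4, Hoxc5 and Hoxc6, all by the peak above) had a MUT peak, where 37.6% did, and 0 of 38 had an EV peak, where 0.735% did. Over all genes, those with little H3K4me2 had fewer peaks: under 10 CPM 3.36% had a WT peak and 10.9% a MUT peak, against 20.9% and 63.5% at or above 10 CPM. Whether the members follow this split cannot be read from the 1 peak in the clusters. The genes counted for it, Hoxc4, Hoxc5 and Hoxc6, averaged 2.64, 5.50 and 5.26 CPM, and no member at or above 10 CPM had a WT or MUT peak. Among the 9 TALE genes 4 had a WT and 5 a MUT peak. Among 14 progenitor genes it was 9 and 13, among 18 genes of the HOXA9 programme 9 and 13, and among 23 cluster neighbours 3 and 14. Each list is 1 pooled sample, so the lists could not be compared with a replicate error.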

How the data were processed

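ChIP-seq of HPC7 cells gave whole-number read counts per start-site window for 20 libraries, deposited by the authors as 1 table without window coordinates, and 3 lists of Snai1 peaks with fold enrichment (a ratio) and -log10 q per peak, which the authors deposited without per-replicate lists. Per the submitters' processing notes, Subread, featureCounts and MACS2 were used with GRCm38/mm10; settings are not given in the sources used here. Of 27095 windows, 93.0% matched a RefSeq symbol; 50 rows that repeat another and 20 empty ones (partly the same rows) were left out, leaving 27044.

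Counts were tested with edgeR 4.0.16 in R 4.3.3 (TMM, filterByExpr by group, quasi-likelihood F-test, all 3 constructs in 1 fit, two-sided, Benjamini-Hochberg over all windows, threshold 0.05). The comparison with IgG used column totals. Libraries equal within counting error were summed. Peaks were matched by an overlap of 1 base after adding 10 kb to each cluster. DESeq2 1.42.0, other scalings, leaving out libraries and a replicate block were alternatives. Same-numbered WT and EV libraries deviated together (correlations 0.231 to 0.367 in H3K4me2, 0.169 to 0.314 in H3K4me1), as did MUT and EV (0.205 to 0.410, 0.396 to 0.592). For WT and MUT the range was -0.177 to 0.155 and -0.028 to 0.266. Library 1 matched library 1 best for WT and EV and for MUT and EV. MUT library 2 matched EV library 3 best in both marks, so the numbers do not pair libraries 2 and 3 throughout. The edgeR fit was tested on simulated counts.

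The members and gene lists were chosen with earlier results of these data known. All 38 members were named; library values were given for the 3 members per cluster with the highest mean H3K4me2 and, per contrast, for those that passed or the 3 with the smallest p. Lists of partners, regulators, neighbours and noncoding genes gave up to 3 genes per direction that passed, or the 1 with the smallest p. Depth per library is given in the report; in the low windows counting error is a large part of the spread.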

Additional observations from a re-analysis of the deposited data

How the results depend on the processing

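Construct contrasts within replicates 2 and 3 called more members than all libraries together, where none passed: 15 (WT against EV), 9 (MUT against EV) and 27 (WT against MUT) for H3K4me2. In WT against MUT they called 10 for H3K4me1 and 1 for the difference between marks. For H3K4me1 and for the difference between marks, the contrasts with EV are not counted here, since EV H3K4me1 is 1 sample there. Leaving out 1 library gave 0 to 1, 0 to 2 and 0 to 5 members for H3K4me2 in the same order and 0 elsewhere, and DESeq2 gave 1 for H3K4me2 in WT against EV. With the replicate block, or with replicates 2 and 3 summed, 0 members passed in every construct contrast. Over IgG the block, which used replicates 1 and 2 only, gave 6 members higher against 7 for H3K4me2 and 24 lower against 26 for H3K4me1. Members higher than IgG in H3K4me2 numbered 12 with DESeq2 and 17 with silent-window scaling, which left 0 lower; in H3K4me1 they numbered 5 with DESeq2, 5 with TMM, 20 with silent-window scaling (1 lower) and 0 to 3 when 1 library was left out. Members differing in replicate 1 are given with the windows called in either direction. For H3K4me1 they were 3 higher and 0 lower without EV (496 of 25816 windows), 5 and 0 without MUT (1471 of 25832) and 12 and 5 without WT (4566 of 25830). Column totals gave 6 and 0 (3545 of 25804), and silent-window scaling 12 and 0 (1411 of 25804). For H3K4me2 they were 1 higher without EV (90 of 25969), 0 without MUT (31 of 25926) and 7 with silent-window scaling (815 of 25943). Column totals gave 2 higher and 1 lower (2503 of 25943). Between the libraries numbered 1, signs reversed for Hoxa4 in H3K4me1 MUT against EV (-0.066), Hoxc9 in WT against EV (0.031 in H3K4me1, 0.17 in H3K4me2) and Hoxd11 in WT against MUT (0.18 in H3K4me1, 0.14 in H3K4me2). Of 24 cluster comparisons, 2 did not overlap, against 1 with silent-window scaling, 11 without EV replicate 1 and 8 without MUT replicate 1. A -log10 q of at least 10 left 0 MUT peaks in the clusters, and a 50 kb flank gave 2. The cause of these changes was not tested. Over all alternatives, 225 values of the main comparisons stayed within their limits and 37 moved; among single genes 289 stayed, 21 became stronger, 9 moved and 5 reversed. Counts under 10 CPM, where 23 of 38 members lie, limit what small differences can be seen.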
